A study of Homo sapiens with 20 samples.

Results

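HCT-116 cells treated for 3 h with MG132 and α-amanitin together were compared with G2 cells collected at the start of drug treatment, over all gene and repeat rows of a count table. HCT-116 is an established human colorectal cancer line. MG132 plus α-amanitin cells were held in 2 mM thymidine for 16 h, released for 7 h, and then given 20 µM MG132 and 50 µg/ml α-amanitin for 3 h. G2 cells had the same block and release and no drug. The comparison used 8 of the 20 libraries of the series, 4 per group, and the members are all 18959 genes and 1076 repeat subfamilies that passed a filter on low counts. The MG132 libraries, with the same synchronisation and 20 µM MG132 for 3 h, are given beside the results where they bear on them. Levels are also given for bortezomib cells, which had that synchronisation and 100 nM bortezomib for 3 h, and for asynchronous cells, which had no thymidine and no drug; both groups, with 4 libraries each, are part of the fit. A group with α-amanitin alone and a vehicle group at 3 h were not analysed here, so MG132, α-amanitin and 3 h of cell cycle time cannot be told apart in the comparison with G2.

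α-Amanitin binds RNA polymerase II, which makes mRNAs, most long noncoding RNAs, most small nuclear RNAs and the host transcripts of most small nucleolar RNAs and microRNAs. RNA polymerase III products such as 7SK, and transcripts of the mitochondrial genome, are made by other polymerases. When synthesis by polymerase II is inhibited, transcripts with short lives fall relative to those with long lives, and mRNAs of immediate early genes and of many signalling regulators are known for short lives. MG132 inhibits the proteasome and is known to induce heat shock and other stress genes through transcription.

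The 8 libraries held 28807585 to 35908799 counts each. Levels are CPM, counts divided by the size of their library after an adjustment by TMM, a method that centres the bulk of the genes. A change is therefore relative to the bulk of transcripts, and a fall of all RNA alike would not be seen. In bulk RNA, fewer cells and less RNA per cell cannot be told apart. Whether replicates were grown separately is not stated in the labels, so p-values reflect only how these libraries vary, and that variation may be technical. Protein-coding genes took 68.3% of the counts in G2 replicate 1, against 77.9% to 82.2% in the other 7 libraries, so G2 replicate 1 stood apart. The epithelial marker EPCAM averaged 243 CPM in MG132 plus α-amanitin cells and 234 CPM in G2 cells, and KRT8 averaged 1860 and 2020 CPM in the same order of groups. Of 12 epithelial markers 10 passed the filter and 0 were called, with a median of -0.251 and a range of -0.953 for CLDN4 to 0.768 for CDH1. Of 10 fibroblast markers and of 10 leukocyte markers, 2 of each list passed the filter, COL1A1 and ACTA2, and CD68 and ITGAM. Summed, the fibroblast pair had 11.2 to 16.2 CPM in MG132 plus α-amanitin libraries and 7.28 to 12.5 CPM in G2 libraries, and the leukocyte pair 3.68 to 4.63 CPM and 2.87 to 3.31 CPM. The 8 other fibroblast markers averaged at most 0.232 CPM and the 8 other leukocyte markers at most 0.445 CPM (CD79A in MG132 plus α-amanitin cells, 0.0366 CPM in G2 cells), and 4 and 7 of them averaged higher in MG132 plus α-amanitin cells. The defining markers COL1A2, DCN, PTPRC and CD3E averaged at most 0.0393 CPM in either group. The source of these marker reads in libraries of this established line was not tested.

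Calls were made where edgeR's quasi-likelihood test, fitted on all 20 libraries and adjusted by Benjamini-Hochberg over all genes, gave an adjusted p under 0.05. Of the genes tested, 636 were called, 3.35%. MG132 plus α-amanitin cells had 439 genes lower and 197 genes higher than G2 cells, 2.32% and 1.04% of the genes tested. The change was at least 2-fold for 355 of the lower and 184 of the higher genes. The libraries of the groups did not overlap for 431 of the lower and 190 of the higher genes. Over all genes, such separation occurred in 7.24% downward and in 7.76% upward. A letter in each sample code is not explained in the labels and was treated as a possible batch. Within letter L, which gave 1 library of each group, and within letter O, all 439 lower and all 197 higher genes had the direction of their call, which is no sign of stability because the genes were called on these libraries and most had no overlap. With the letter as a block, 154 genes were called lower and 70 higher. Leaving out each of the 8 libraries in turn, 176 lower and 81 higher genes were called in every fit. Without G2 replicate 1, 233 genes were called lower and 115 higher, and without MG132 plus α-amanitin replicate 1, 194 and 103. A mean log2 CPM of at least 3 was reached by 142 of the lower genes and by 18 of the higher genes.

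The lowest mRNAs at that level included NFKBIA, DKK1, TRIB1 and ID1. NFKBIA (ENSG00000100906, hg38 chr14:35401511-35404749) encodes IκBα, which holds NF-κB in the cytoplasm. NFKBIA had 3.71, 3.13, 7.63 and 8.7 CPM in MG132 plus α-amanitin libraries, against 31.2, 37.4, 27.3 and 26.1 CPM in G2 libraries. Every treated library lay below every G2 library. The log2 fold change was -2.40 (SE 0.29, adjusted p = 8.72e-05). MG132 libraries lay between them, at 10.1 to 22.2 CPM.

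DKK1 (ENSG00000107984, chr10:52314296-52318042) encodes a secreted antagonist of Wnt signalling. It had 51.6, 76.8, 58.3 and 53.9 CPM in MG132 plus α-amanitin libraries, against 423, 318, 191 and 325 CPM in G2 libraries. The groups were well separated although G2 libraries spread from 191 to 423 CPM. The log2 fold change was -2.39 (SE 0.30, adjusted p = 0.000116). TRIB1 (ENSG00000173334, chr8:125430321-125438405) encodes a pseudokinase that guides ubiquitin ligases to their substrates. TRIB1 had 40.6, 52.6, 53.6 and 45.3 CPM in MG132 plus α-amanitin libraries, against 259, 232, 250 and 257 CPM in G2 libraries. Both groups were tight, and the log2 fold change was -2.38 (SE 0.21, adjusted p = 2.99e-06). ID1 (ENSG00000125968, chr20:31605283-31606515) encodes an inhibitor of basic helix-loop-helix transcription factors. ID1 had 13.1, 16.7, 21.4 and 20.8 CPM in MG132 plus α-amanitin libraries, against 100, 105, 83.9 and 80.9 CPM in G2 libraries. No library of one group came near the other, and the log2 fold change was -2.36 (SE 0.42, adjusted p = 0.00305).

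MYC (ENSG00000136997, chr8:127735434-127741434) encodes a transcription factor of growth. MYC had 97.2, 112, 102 and 104 CPM in MG132 plus α-amanitin libraries, against 378, 310, 252 and 307 CPM in G2 libraries. The treated libraries were close together and all below G2. The log2 fold change was -1.59 (SE 0.21, adjusted p = 0.000172). In MG132 libraries MYC had 253, 301, 231 and 320 CPM, a range that overlapped G2. MYC was lower in MG132 plus α-amanitin than in MG132 alone by a log2 fold change of -1.41 (adjusted p = 0.000395).

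The other lowest protein-coding genes had log2 fold changes of -1.61 to -2.02, and all were separated from G2. IER3, an early response gene, had 51.3, 62.4, 68.7 and 84 CPM in MG132 plus α-amanitin libraries, against 293, 241, 234 and 238 CPM in G2 libraries (log2 fold change -1.92, adjusted p = 0.000192). JUNB, an AP-1 subunit, had 6.45, 7.92, 11.1 and 17.6 CPM in MG132 plus α-amanitin libraries, against 54, 40, 33.7 and 35.4 CPM in G2 libraries (log2 fold change -1.92, adjusted p = 0.00088). The log2 fold change was -2.02 for SERTAD3, -1.87 for ADM, which encodes the peptide adrenomedullin, and -1.70 for HS3ST1, a heparan sulfate sulfotransferase. It was -1.84 for DUSP2 and -1.65 for DUSP6, both phosphatases of MAP kinases, -1.71 for HES1, a repressor downstream of Notch, and -1.61 for TIGD5. ZFP36, which binds AU-rich elements and directs mRNAs to decay, had 3.62, 3.88, 4.53 and 4.86 CPM in MG132 plus α-amanitin libraries, against 14, 10.5, 16.5 and 16.5 CPM in G2 libraries (log2 fold change -1.77, adjusted p = 0.000403). The calls of these genes, and of NFKBIA, DKK1, TRIB1, ID1 and MYC, held when any 1 of the 8 libraries was left out. With the code letter as a block, ID1 (adjusted p = 0.0904) and TIGD5 (0.0534) lost the call. MG132 libraries also lay below all G2 libraries for NFKBIA, TRIB1, SERTAD3, JUNB, HS3ST1, DUSP6 and TIGD5. They overlapped G2 for DKK1, ID1, IER3, ADM, DUSP2, ZFP36 and HES1. With MG132 alone TRIB1 had 95, 138, 85.8 and 123 CPM, DKK1 99.7, 237, 112 and 92.8 CPM, and ID1 53.9, 67.7, 78.1 and 153 CPM. TIGD5 had 4.16 to 7.6 CPM with MG132 alone and 3.81 to 5.5 CPM with both drugs, against 11 to 18.2 CPM in G2.

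**Figure D1:**
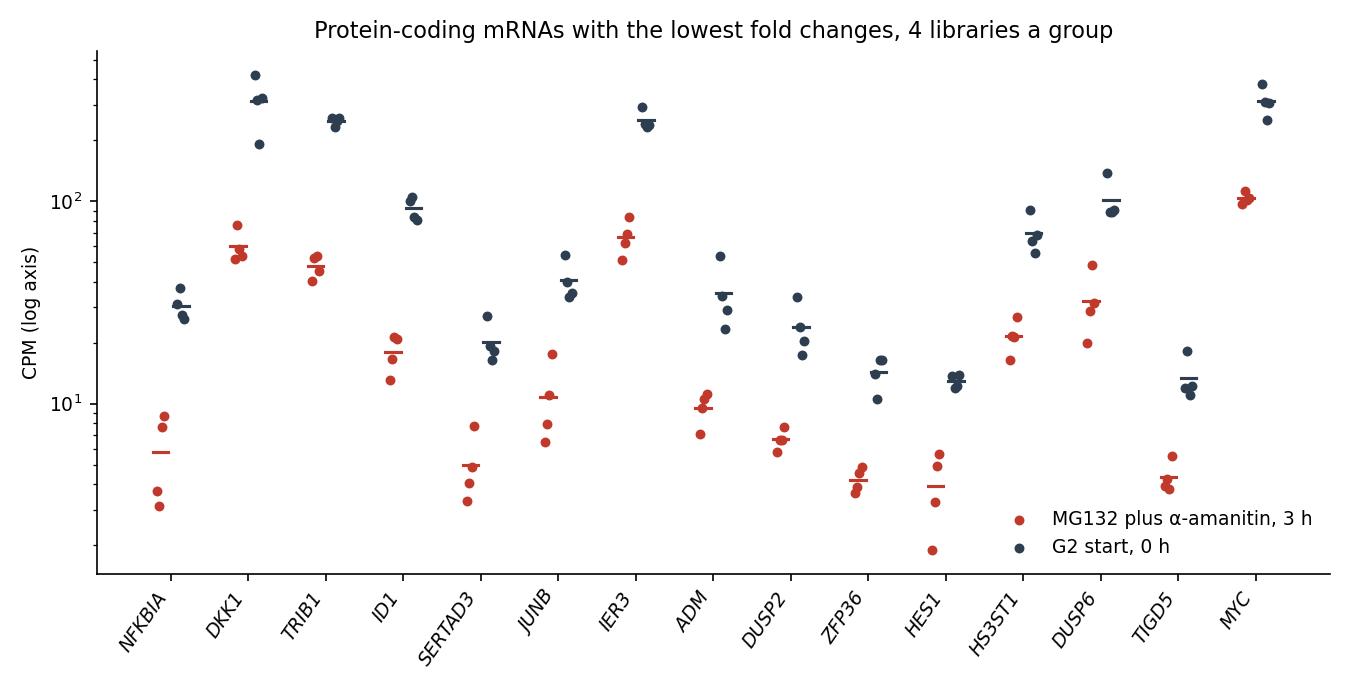
CPM (log scale) of the lowest protein-coding genes in each MG132 plus α-amanitin library and each G2 library, 1 point per library and a line at each mean. For each gene shown the treated points lie below the G2 points; MYC sits at 97.2 to 112 CPM in treated libraries and at 252 to 378 CPM in G2 libraries.

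Over all genes 2.32% were called lower and 1.04% higher, with a median log2 fold change of -0.00395. Read by role, 12 of 35 tested immediate early genes were called lower, 34.3%, and 2 higher, 5.71%, with a median of -0.60. The lower ones included JUNB, IER2, IER3, IER5, MYC, KLF6, DUSP2, DUSP6 and ZFP36. The 2 higher ones were JUN and ATF3. Of 49 short-lived regulator mRNAs 12 were called lower, 24.5%, and 0 higher, with a median of -0.57. These included NFKBIA, TRIB1, ID1, ID2, HES1, TGIF1, SOX4 and SOX9. Of 16 Wnt targets, MYC, DKK1, SOX9 and BMP4 were called lower, 25%, while AXIN2, a feedback inhibitor of the pathway, missed the threshold (-1.17, adjusted p = 0.0607). The 16 split into 8 negative and 8 positive log2 fold changes, with a median of -0.03. BMP4, a secreted growth factor, averaged 33.4 ± 3.04 CPM in MG132 plus α-amanitin cells and 87 ± 22.4 CPM in G2 cells (SD, n = 4 each).

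Some calls were lost when 1 library was left out, often whichever of several libraries it was. IER2 (-1.10, adjusted p = 0.0221) and UBE2C each lost the call without G2 replicate 1, G2 replicate 2, or MG132 plus α-amanitin replicate 1, 2 or 3, with adjusted p up to 0.107 and 0.123. ID2 (-1.46, adjusted p = 0.0265) lost it without replicate 1 or 2 of either group, up to 0.121. KLF6 (-0.88, adjusted p = 0.0157) lost it without MG132 plus α-amanitin replicate 1 or 2, up to 0.0596. SOX4 lost it without MG132 plus α-amanitin replicate 1, 2 or 3, up to 0.0881, and SOX9 without replicate 1 of that group, 0.0796. With the code letter as a block, the calls of IER2, KLF6, SOX4, SOX9, UBE2C, CENPA, TGIF1 and BMP4 were lost, with adjusted p of 0.0539 to 0.188.

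Several regulators were as low in MG132 alone. TGIF1, a repressor of TGF-β signalling, had 34.4, 34, 41.3 and 50.6 CPM in MG132 plus α-amanitin libraries and 33.3, 30, 37.7 and 50.5 CPM in MG132 libraries, against 114, 93.7, 89.3 and 90.6 CPM in G2 libraries. Both drug groups lay below G2 and overlapped each other. SOX9, a transcription factor of the intestinal crypt, averaged 34.9 ± 5.01 CPM in MG132 plus α-amanitin, 32.9 ± 4.57 CPM in MG132 and 65 ± 8.11 CPM in G2 (SD, n = 4 each). The log2 difference of MG132 plus α-amanitin from MG132 was 0.08 for TGIF1 (adjusted p = 0.936) and 0.09 for SOX9 (adjusted p = 0.921). IER5, an early response gene linked to heat shock factor, showed the other pattern. IER5 had 11.7, 14.9, 25.2 and 21.6 CPM in MG132 plus α-amanitin libraries and 106 to 141 CPM in MG132 libraries, against 45.3, 46.1, 34.9 and 38.6 CPM in G2 libraries. IER5 was thus higher than G2 with MG132 alone (log2 fold change 1.60, adjusted p = 0.000169) and lower than G2 with α-amanitin added (-1.17, adjusted p = 0.00346).

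Among genes that act on mRNA decay, 3 of 61 were called lower, 4.92%, against 2.32% over all genes, and 0 higher. The median was 0.0159, with 33 of 61 positive. The genes called were ZFP36, its paralogue ZFP36L1 (-0.81, adjusted p = 0.0399) and the endonuclease gene ZC3H12A (-1.05, adjusted p = 0.0265). ZFP36L1 lost its call without G2 replicate 1 or 4 or any 1 treated library, up to 0.159, and ZC3H12A without any library except G2 replicate 3, up to 0.0933. Of 30 G2/M genes, CENPA, the histone H3 of centromeres (-0.97, adjusted p = 0.00785), and UBE2C, the E2 enzyme of the anaphase-promoting complex (-1.02, adjusted p = 0.0271), were called lower. These 2 are 6.67% of the G2/M genes, against 2.32% over all genes, and the median of the G2/M genes was -0.28.

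Large groups of abundant mRNAs held few or no calls, where 3.35% of all genes were called. Of 78 cytosolic ribosomal protein genes 0 were called, and all 78 had a negative log2 fold change with a median of -0.35. Their summed level was 42500 to 57500 CPM in MG132 plus α-amanitin libraries, against 89900, 66900, 45000 and 46100 CPM in G2 libraries, so G2 replicates 1 and 2 stood above the treated range and G2 replicates 3 and 4 within it. Of 52 replication-dependent histone genes, all were negative, with a median of -0.97, and only H3C6 was called (-1.65, adjusted p = 0.013), a call lost without replicate 1 of either group, up to 0.0629. The histone sum was 1820 to 4300 CPM in MG132 plus α-amanitin libraries, against 7990, 9060, 3530 and 3350 CPM in G2 libraries, with the same pair of G2 libraries high. Histone copies are near-identical, so reads may be split among them. Housekeeping genes had 0 calls of 32 and a median of -0.0145, and proteasome subunits had 0 of 34 and a median of -0.16. The 13 mitochondrial mRNAs, made by the mitochondrial polymerase, had 0 calls and a median of 0.71. Their summed level was 14000, 17400, 14000 and 11400 CPM in MG132 plus α-amanitin libraries, against 9350, 11200, 10800 and 10800 CPM in G2 libraries, with no overlap. Scaled to these 13 mRNAs instead, the median of all genes shifted by -0.41 on the log2 scale, and 899 genes were called lower and 84 higher.

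The share of protein-coding genes called lower was highest at 1 exon and declined in each class with more exons. No test of this order was made. Exons were those of 1 annotated transcript chosen for each gene. Among all 13755 tested protein-coding genes 182 were lower, 1.32%, and 108 higher, 0.785%. Of 354 genes with 1 exon in GENCODE release 29, 40 were lower, 11.3%, and their median log2 fold change was -0.43. The share lower was 4.9% of 1450 genes with 2 to 3 exons, 1.42% of those with 4 to 6, 0.513% with 7 to 10 and 0.278% with 11 to 20. Of 1845 genes with more than 20 exons, 1 was lower, 0.0542%, and the median was 0.20. The share called higher stayed between 0.69% and 0.858% in the 6 classes. JUNB, IER2, IER5, SOX4 and TIGD5 are among the single-exon genes called lower.

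Where the mean log2 CPM reached 3, the 6 classes kept this order. At that level 24 of 174 single-exon genes were lower, 13.8%, and 102 of 9628 with several exons, 1.06%, from 6.67% with 2 to 3 exons to 0 of 1443 with more than 20. Within the shortest 2751 protein-coding genes, 36 of 324 single-exon genes were lower, 11.1%, and 79 of 2427 with several exons, 3.26%. Gene length ran the same way, with medians of -0.27 in those shortest genes and 0.14 in the longest 2751. Exon number, gene length and mature length move together, and their parts were not tested. The share of single-exon genes called lower was 3.39% with the code letter of the samples as a block, where the share over all genes was 0.812% and the single-exon median -0.35. It was 5.04% to 10.9% with 1 library left out, with the lowest value without MG132 plus α-amanitin replicate 1 (1.01% over all genes) and 6.44% without G2 replicate 1 (1.2% over all genes). Corrected for GC content and transcript length by an offset it was 18.7%, against 3.88% over all genes, with medians of -0.39 for 1 exon and 0.0929 for more than 20.

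**Figure D2:**
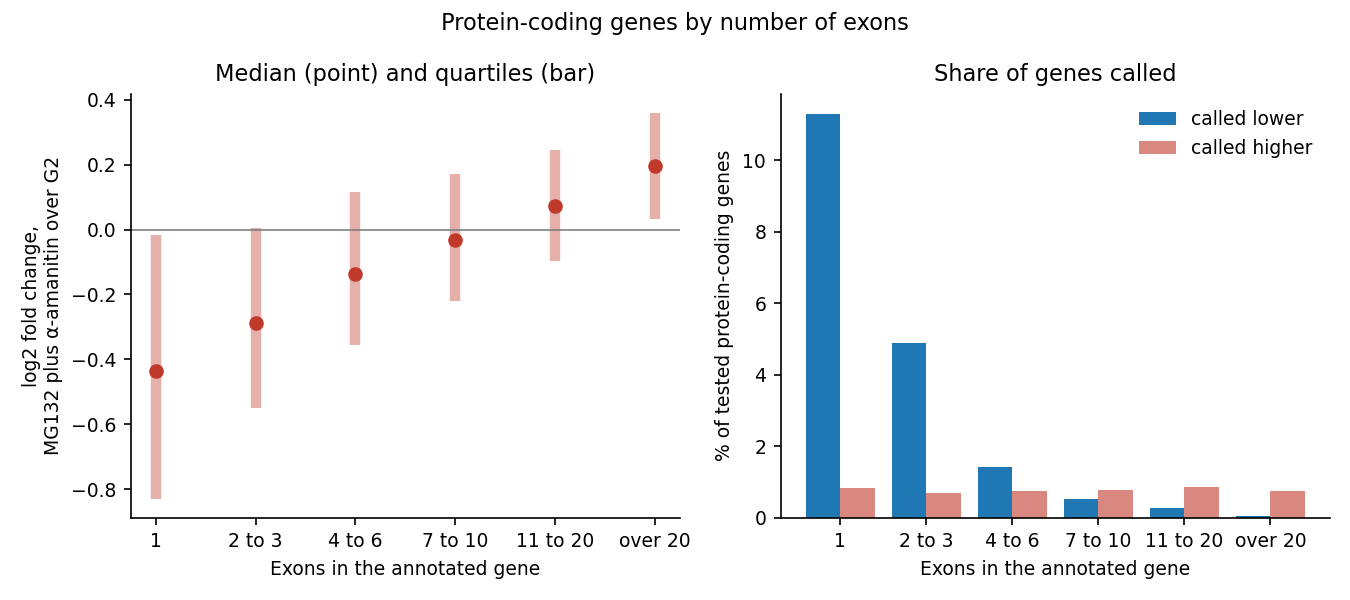
Protein-coding genes by number of exons: left, the median (point) and quartiles (bar) of the log2 fold change of MG132 plus α-amanitin over G2; right, the percent of tested genes called lower and higher. The share called lower runs from 11.3% at 1 exon to 0.0542% above 20 exons, while the share called higher stays below 1% in every class. Exons are those of 1 chosen transcript per gene.

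The share called lower rose with copies of the AU-rich nonamer TTATTTATT in the 3′ UTR, searched on the sense strand, but not in every class of UTR length. Of 12396 genes with no copy 1.31% were lower, of 844 with 1 copy 1.42%, and of 253 with at least 2 copies 2.37%. Those 253 held 6 genes called lower and 6 called higher, and the share called higher was 0.783% with no copy. The medians of these classes were -0.0102, 0.0613 and 0.0843, and medians also rose with UTR length. At matched UTR length, in 5 classes of equal size, the share lower was higher with a nonamer in the second class (5 of 74 genes, 6.76%, against 1.83% of those without), in the fourth (9 of 268, 3.36%, against 1.11%) and in the longest (0.534% against 0.421%), and lower in the shortest (0 of 33) and the middle one (1 of 160). No difference between these classes was tested, and the shares with a nonamer stand for at most 9 genes each.

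Small nuclear and small nucleolar RNAs held many of the largest falls. Of 88 small nuclear RNA loci 21 were called lower, 23.9%, and of 261 small nucleolar RNA loci 52, 19.9%, with 0 called higher in both classes. Over all genes 2.32% were called lower and 1.04% higher. The 88 include 24 loci of U6, U6atac and 7SK symbols, a group of polymerase III products and their pseudogenes, of which 0 were called lower. Their median was 0.0272. A list of 19 tested polymerase III products also had 0 calls, but 18 of them were negative, with a median of -0.364. That list summed to 43700 to 60800 CPM in MG132 plus α-amanitin libraries, against 144000, 67100, 40100 and 44800 CPM in G2 libraries. The 31 loci with U1 symbols, made by polymerase II where functional, held 17 of the 21 lower calls. U1 RNA is the part of the spliceosome that pairs with the 5′ splice site, and the human genome holds canonical copies (RNU1) and variant copies (RNVU1). Of 21 tested RNVU1 loci 15 were called lower, with a median of -3.43. This count was 13 to 16 with 1 library left out. The library kit is one for total RNA and not for small RNA, and reads of near-identical copies may be split or lost, so counts of single copies are uncertain.

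The sequences of 4 copies are shown because copies close to the canonical sequence and copies far from it differed in their calls. They were read from GENCODE release 29 on hg38, 5′ to 3′. Capitals mark ACTTACCTG, the run that pairs with 5′ splice sites, where a copy holds it within its first 12 bases. RNU1-1 is the canonical copy, RNVU1-7 differs from it at 1 position, RNVU1-15 at 18 and RNVU1-34 at 34.
RNU1-1: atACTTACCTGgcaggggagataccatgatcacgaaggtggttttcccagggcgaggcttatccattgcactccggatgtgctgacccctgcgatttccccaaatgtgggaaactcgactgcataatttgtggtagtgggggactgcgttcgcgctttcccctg
RNVU1-7: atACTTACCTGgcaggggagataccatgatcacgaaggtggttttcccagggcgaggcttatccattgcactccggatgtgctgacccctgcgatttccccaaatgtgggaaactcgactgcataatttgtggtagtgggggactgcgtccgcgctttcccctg
RNVU1-15: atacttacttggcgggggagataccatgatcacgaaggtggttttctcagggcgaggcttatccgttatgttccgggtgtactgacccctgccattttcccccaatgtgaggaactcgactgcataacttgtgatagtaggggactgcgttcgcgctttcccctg
RNVU1-34: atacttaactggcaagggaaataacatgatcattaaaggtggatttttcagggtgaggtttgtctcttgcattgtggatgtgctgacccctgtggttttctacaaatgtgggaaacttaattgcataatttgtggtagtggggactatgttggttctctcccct

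RNVU1-34, RNVU1-25 and RNVU1-15, chosen after their values were seen, are examples of copies far from RNU1-1. RNVU1-34 (chr17:58679527-58679690) had 0.192, 0.344, 0.163 and 0.276 CPM in MG132 plus α-amanitin libraries, against 9.52, 7.87, 5.12 and 7.3 CPM in G2 libraries. The treated libraries were far below each G2 library, and the log2 fold change was -4.91 (SE 0.40, adjusted p = 2.36e-06). In MG132 libraries it had 4.27 to 17.2 CPM, a range that took in all of G2. RNVU1-25 (chr1:146409903-146410062) had a log2 fold change of -4.55 and RNVU1-15 (chr1:144412576-144412740) one of -4.03, both without overlap between groups. RNVU1-7 (chr1:148038753-148038916), the most abundant copy, had 113, 154, 214 and 202 CPM in MG132 plus α-amanitin libraries, against 230, 65, 45.7 and 84.9 CPM in G2 libraries. The treated libraries lay between G2 replicate 1 and the other 3 G2 libraries, and the difference was not called (0.68, adjusted p = 0.565).

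Identity to RNU1-1 was computed for 25 of the 31 loci with U1 symbols, all about equally long. These were the RNVU1 loci and the RNU1 loci with a plain copy number. The other U1 loci were left out by their symbols, and of those only RNU1-108P was called lower. The splits below therefore do not cover all U1 loci. The value of 96% was set after the calls were seen, in the gap between RNVU1-2 at 94.5% and RNVU1-1 at 96.3%, so the counts on its sides are a description. Of the 25, all 15 copies below 96% identity to RNU1-1 were called lower. Of 10 copies at or above 96%, 1 was called lower, and 6 of these 10 are identical to RNU1-1, so their counts cannot be assigned with certainty. The one called was RNU1-2, with 9.75, 7.95, 4.6 and 3.29 CPM in MG132 plus α-amanitin libraries, against 26.3, 17.7, 15.4 and 26.6 CPM in G2 libraries (-1.75, adjusted p = 0.00991). The run ACTTACCTG was held by 14 of the 25 copies, of which 5 were called lower, and all 11 copies without it were called lower. RNVU1-27 (-1.85, adjusted p = 0.0092) is a copy with the run that fell. Summed over the 21 variant loci, levels were 226 to 450 CPM in MG132 plus α-amanitin libraries and 254 to 865 CPM in G2 libraries, which overlapped. In that sum RNVU1-7 averaged 171 CPM in MG132 plus α-amanitin cells and 106 CPM in G2 cells, and RNVU1-31 averaged 93.9 and 106 CPM in the same order of groups.

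**Figure D3:**
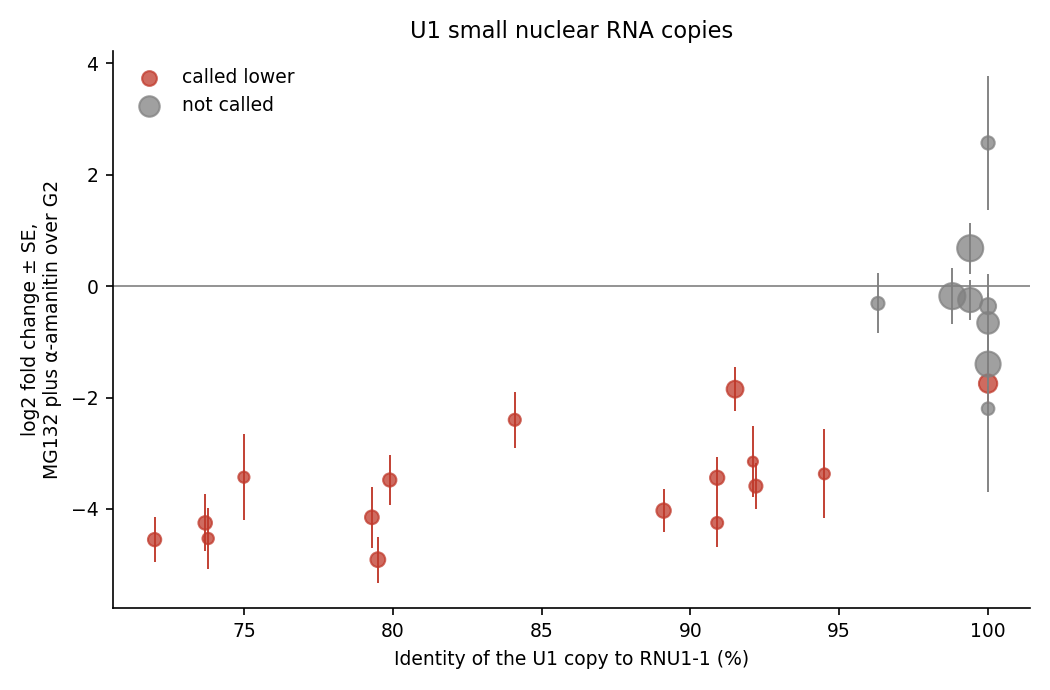
Log2 fold change of MG132 plus α-amanitin over G2 for 25 U1 copies against their percent identity to RNU1-1, with bars of 1 SE and larger points for higher mean CPM in G2. Only RNVU1 loci and RNU1 loci with a plain copy number are shown. Copies below 96% identity all lie below 0 and are called lower; RNVU1-34 is at -4.91 and 79.5% identity, and RNVU1-7 at 0.68 and 99.4%.

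Some other noncoding transcripts were low as well. The lowest gene at a mean log2 CPM of at least 3 was a U3 snoRNA locus (ENSG00000212195, chr17:58631641-58631836). U3 guides processing of ribosomal RNA. This locus had 1.07, 1.35, 0.424 and 0.884 CPM in MG132 plus α-amanitin libraries, against 25.8, 17.2, 8.44 and 8.28 CPM in G2 libraries. All treated libraries were below all G2 libraries, and the log2 fold change was -3.99 (SE 0.44, adjusted p = 3.96e-05). An unnamed lincRNA (ENSG00000276216) was at -3.02, and its annotation starts at the same base as RNVU1-14, so their reads may overlap. Transcripts divergent from promoters, with symbols ending in -DT, held 25 called lower of 277, 9.03%, against 2.32% over all genes. Summed over the 277, levels were 336 to 414 CPM in MG132 plus α-amanitin libraries and 420 to 515 CPM in G2 libraries. With MG132 alone the sum was as low, at 312 to 365 CPM. Antisense genes held 73 called lower of 1032, 7.07%, and lincRNAs 60 of 969, 6.19%. Of the same genes, 31 antisense genes, 3%, and 16 lincRNAs, 1.65%, were called higher, against 1.04% over all genes. Not all noncoding classes were low. The share lower was 0.336% of 596 processed pseudogenes and 0.98% of 306 sense intronic genes, with medians of 0.101 and 0.227. In the snRNA list, RNU11 of the minor spliceosome was also called (-1.57, adjusted p = 0.0398), which was lost without any library except G2 replicate 3 or 4, up to 0.239.

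MicroRNA host transcripts were lower in 7 of 33 cases, 21.2%, against 2.32% over all genes. MIR17HG hosts the miR-17-92 cluster and MIR22HG hosts miR-22. MIR17HG had 4.31, 4.16, 7.79 and 3.87 CPM in MG132 plus α-amanitin libraries, against 20.1, 20.2, 15.3 and 16.8 CPM in G2 libraries. The groups did not overlap, and the log2 fold change was -1.85 (SE 0.24, adjusted p = 0.000157). MIR22HG had 0.851, 1.6, 2.84 and 2.27 CPM in MG132 plus α-amanitin libraries, against 11.7, 7.28, 6.69 and 10.1 CPM in G2 libraries (log2 fold change -2.25, adjusted p = 0.000341). Of 21 regulatory lncRNAs, 4 were called lower, 19%, these among them, and NEAT1 was called higher, 4.76%. Over all genes 1.04% were called higher.

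MicroRNA hairpin loci were counted over the whole table, whatever their host. Of 210 hairpin loci 16 were called lower, 7.62%, and 1 higher, 0.476%, against 2.32% and 1.04% over all genes. At these sites, reads of an unspliced host and of the hairpin cannot be told apart, and the kit is not one for RNAs of the length of mature microRNAs. The mature sequences of some hairpins called lower are shown to identify their products, from RefSeq (GRCh38.p14), with the seed, bases 2 to 8, in capitals. Of 17 called loci 14 were matched, and 1 seed was held by more than 1 mature sequence, that of miR-21-5p and miR-590-5p. The loci below were chosen after their values were seen.
hsa-miR-21-5p: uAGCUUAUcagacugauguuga
hsa-miR-590-5p: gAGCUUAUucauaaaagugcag
hsa-miR-18a-5p: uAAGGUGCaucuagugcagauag
hsa-miR-7-5p: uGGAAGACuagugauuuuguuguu

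MIR21 (chr17:59841266-59841337) lies within VMP1, a gene of autophagy and membrane traffic. MIR21 had 0.0275, 0.0626, 0.0652 and 0.0276 CPM in MG132 plus α-amanitin libraries, against 0.661, 0.442, 0.644 and 0.529 CPM in G2 libraries, or 1 to 2 reads per library against 17 to 21. The groups were far apart at a low depth (log2 fold change -3.55, SE 0.57, adjusted p = 0.00138). VMP1 was also called lower, by less (-1.06, adjusted p = 0.0212). MIR7-1 (chr9:83969748-83969857), within HNRNPK, which encodes an RNA-binding protein, had 0.137, 0.157, 0.228 and 0.221 CPM in MG132 plus α-amanitin libraries, against 1.29, 0.754, 0.491 and 0.635 CPM in G2 libraries (-2.06, adjusted p = 0.00683). HNRNPK itself was not called (0.10, adjusted p = 0.888). MIR18A in MIR17HG was at -2.38 (adjusted p = 0.0169), a call lost without replicate 1 or 2 of either group, up to 0.0744. MIR590 in EIF4H was at -1.37 (adjusted p = 0.0432), and EIF4H at 0.07. Of 13 hairpins called lower inside a tested host, 7 had a host called lower, and the median of their hosts was -1.03. The hairpin called higher was MIR612, which lies within NEAT1 (1.95, adjusted p = 0.00785).

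Most small nucleolar RNAs called lower lay in hosts that were not called. Of 255 such loci inside a tested host, 52 were called lower, and for 1 of these the host was called lower, SNORD50B in SNHG5. The median of the hosts of the 52 was -0.36. SNHG1 carries several C/D box snoRNAs in its introns, which guide methylation of RNA. SNORD26 had 2.03, 2.82, 2.9 and 3.07 CPM in MG132 plus α-amanitin libraries, against 14.1, 10.5, 8.04 and 9.37 CPM in G2 libraries. No libraries overlapped, and the log2 fold change was -1.95 (SE 0.26, adjusted p = 0.000197). SNORD27 and SNORD28 in the same host, chosen after their values were seen, were at -2.55 and -2.53 and also called. SNHG1 was not called (-0.52, adjusted p = 0.464). C/D box snoRNAs held 40 called lower of 134, 29.9%, and H/ACA box snoRNAs 9 of 104, 8.65%, and this difference was not tested. The share over all genes was 2.32%. Over all snoRNA loci the median was -0.65. It was -0.28, with 28 loci called lower, without G2 replicate 1, and -0.0886, with 40 called lower, with the GC and length offset. Without MG132 plus α-amanitin replicate 1, 26 loci were called lower. Summed over the 134 C/D box loci, levels were 1720 to 4760 CPM in MG132 plus α-amanitin libraries, against 1970 to 3380 CPM in G2 libraries other than replicate 1, which had 9270 CPM. The SNHG5 call (-0.86, adjusted p = 0.0426) was lost without any library except G2 replicate 3 or MG132 plus α-amanitin replicate 4, up to 0.175. RN7SK, a polymerase III product that restrains elongation, was not called (-0.79, adjusted p = 0.464). It had 10000 to 13000 CPM in MG132 plus α-amanitin libraries, against 10000 to 16500 CPM in G2 libraries other than replicate 1, which had 44200 CPM.

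Stress genes known to respond to proteasome inhibitors were compared with MG132 alone, a matched time. HSPA6, an inducible HSP70, had 1.65, 2.1, 0.945 and 1.85 CPM in MG132 plus α-amanitin libraries and 91.3, 47, 88 and 76 CPM in MG132 libraries, against 0.0367, 0.182, 0.123 and 0.159 CPM in G2 libraries. The 3 groups did not overlap. HSPA6 was higher with both drugs than in G2 (log2 fold change 3.61, SE 0.44, adjusted p = 8.72e-05) and lower than with MG132 alone (-5.53, adjusted p = 1.32e-07). CHAC1, which degrades glutathione and is a target of ATF4, had 4.67, 6.48, 9.06 and 8.32 CPM in MG132 plus α-amanitin libraries and 73.4 to 114 CPM in MG132 libraries, against 2.9, 2.18, 1.6 and 1.61 CPM in G2 libraries. These 3 groups were also separate, and CHAC1 was higher than in G2 by 1.78 (SE 0.31, adjusted p = 0.00251) and lower than with MG132 by -3.64 on the log2 scale.

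Higher levels than in G2 were also called for ATF3, a stress transcription factor (1.63, adjusted p = 0.00785), ZFAND2A, a heat shock gene that binds the proteasome (1.28, adjusted p = 0.011), OSGIN1, an oxidative stress gene (1.24, adjusted p = 0.0051), and GADD45A, a p53 target (1.09, adjusted p = 0.00482). ATF3 averaged 44.6 ± 10.2 CPM in MG132 plus α-amanitin, 275 ± 63 CPM in MG132 and 14.5 ± 4.37 CPM in G2 (SD, n = 4 each). JUN (1.45, adjusted p = 0.0318) and the co-chaperone gene DNAJA4 (0.98, adjusted p = 0.0278) were called with all libraries. JUN lost its call without G2 replicate 1, 2 or 3 or treated replicate 2, 3 or 4, up to 0.112, and DNAJA4 without G2 replicate 1, 2 or 3 or treated replicate 2 or 3, up to 0.102. HSPA1B, a major inducible HSP70 with a near-identical copy, had 380, 452, 488 and 698 CPM in MG132 plus α-amanitin libraries and 3620 to 5780 CPM in MG132 libraries, against 310, 448, 320 and 344 CPM in G2 libraries. It was not called against G2 (0.50, adjusted p = 0.434), and neither were HMOX1 (0.20), DDIT3 (0.76), FOS (-0.52), CDKN1A (-0.16) and GDF15 (-0.87). Over 32 tested genes of the cytosolic heat shock list 3 were called higher, HSPA6, ZFAND2A and DNAJA4. This is 9.38%, against 1.04% over all genes, and the median of the list was 0.19. Scaled to mitochondrial mRNAs, the median of this list was -0.24, HMOX1 was at -0.144, and ATF3, JUN, ZFAND2A, OSGIN1, GADD45A and DNAJA4 were not called (adjusted p of 0.1 to 0.3), while HSPA6 and CHAC1 were.

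**Figure D4:**
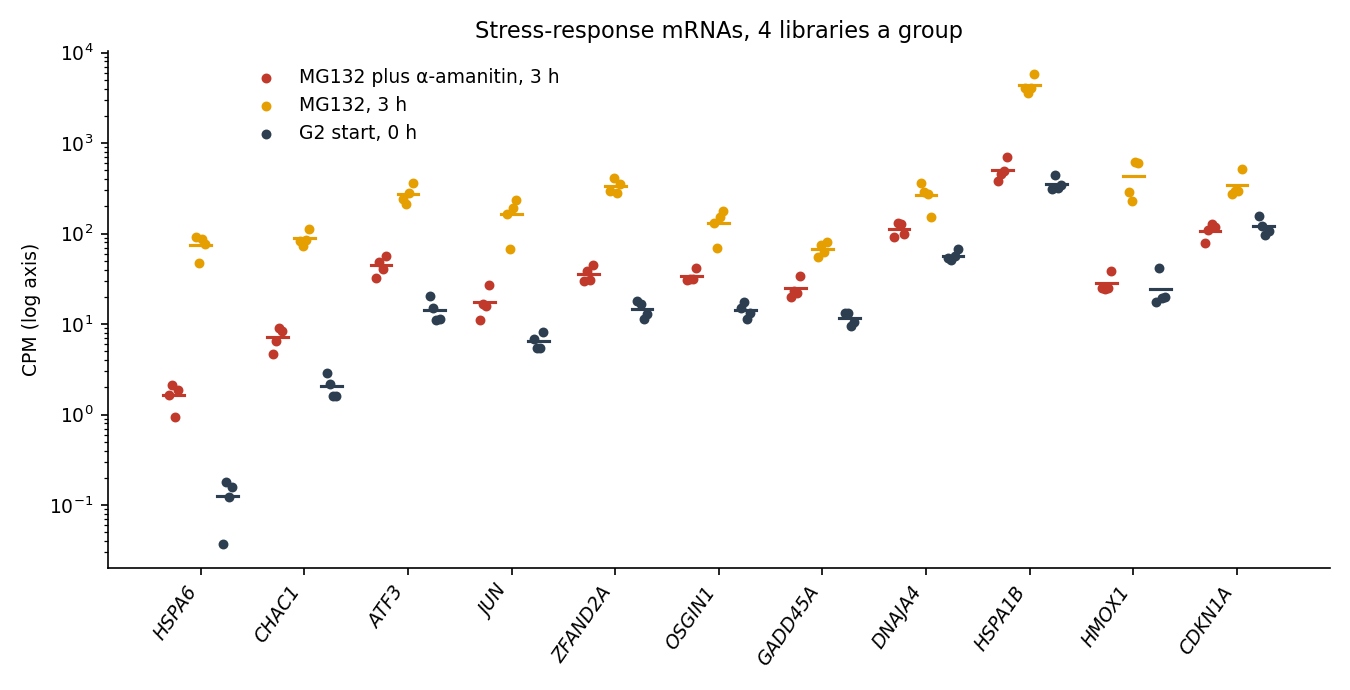
CPM (log scale) of stress genes in each MG132 plus α-amanitin, MG132 and G2 library, 1 point per library and a line at each mean. HSPA6 lies at 0.945 to 2.1 CPM with both drugs, 47 to 91.3 CPM with MG132 and 0.0367 to 0.182 CPM in G2.

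NEAT1, the long noncoding RNA that builds paraspeckles, was called higher. It had 213, 238, 177 and 138 CPM in MG132 plus α-amanitin libraries, against 49.2, 24.3, 73 and 62.6 CPM in G2 libraries. All treated libraries exceeded all G2 libraries (log2 fold change 1.87, SE 0.37, adjusted p = 0.00598). MG132 libraries had 63.7 to 159 CPM, and the difference of both drugs from MG132 was not called (0.74, adjusted p = 0.406). DNHD1, a dynein heavy chain domain gene, was higher by 1.69 (adjusted p = 0.00679) and ABHD4, a lipid hydrolase, by 0.83 (adjusted p = 0.00975). With the code letter as a block, NEAT1 (adjusted p = 0.123), DNHD1 (0.117) and ABHD4 (0.0533) were not called, and scaled to mitochondrial mRNAs ABHD4 was not (0.413).

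Most genes called higher were at low levels. Of the 197, 175 had a known position and a mean log2 CPM below 3, and 92 of these are protein-coding. Summed over the 175, levels were 349, 352, 291 and 243 CPM in MG132 plus α-amanitin libraries and 172, 129, 139 and 153 CPM in MG132 libraries, against 85.9, 80.9, 113 and 111 CPM in G2 libraries. The genes were called on these G2 and treated libraries, so that order is fixed for them; in asynchronous libraries, which the contrast did not use, the sum was 90.3 to 113 CPM.

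About as many of these genes lay within 10 kb behind an expressed gene as farther away. An expressed gene was counted at a mean log2 CPM of at least 3. Of the 175, 24 overlapped an expressed gene, 13.7%, against 22.5% of all tested genes at this level. For 151 with no overlap and with an expressed gene upstream on the same strand, the gap to it was at most 10 kb for 74, 49%, and more for 77, with a median of 10.3 kb. It was more than 50 kb for 29 of them. Over all 6511 such tested genes it was at most 10 kb for 1022, 15.7%, with a median of 135 kb. Of 216 such genes called lower, 25 were within 10 kb, 11.6%. Of the 175, 65 passed the filter on low counts only through the MG132 plus α-amanitin libraries, 37.1%, against 5.86% of all tested genes at this level, and such genes could hardly be called lower. Among genes that also passed without those libraries, the gap was at most 10 kb for 48 of 92 called higher, 52.2%, and for 920 of all 6106, 15.1%. On the downstream side, 9 of 150 genes called higher were within 10 kb of an expressed gene, 6%, and 515 of 6502 of all, 7.92%. Levels of reads that run on from an upstream gene and of the downstream gene itself cannot be told apart in these counts.

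The examples were chosen after their values were seen. CASS4 (chr20:56412112-56460387), a scaffold protein gene, begins 5743 bases after CSTF1 and had 2.72, 2.5, 1.92 and 1.99 CPM in MG132 plus α-amanitin libraries, against 0.11, 0.13, 0.307 and 0.344 CPM in G2 libraries. LCT, the lactase gene of the small intestine, begins 2446 bases after MCM6 and had 2.72, 3, 2.35 and 2.21 CPM in MG132 plus α-amanitin libraries, against 0.588, 0.234, 0.552 and 0.318 CPM in G2 libraries. Neither gene's groups overlapped, and the log2 fold changes were 3.32 (adjusted p = 0.000403) and 2.61 (adjusted p = 0.000475). TG, which encodes thyroglobulin of the thyroid, begins 18151 bases after PHF20L1 and was higher by 4.11, with 16 to 66 reads in MG132 plus α-amanitin libraries and 2 to 3 in G2 libraries. UBA7, the activating enzyme of ISG15, begins 14653 bases after TRAIP and was higher by 2.14. In MG132 libraries CASS4 stayed at 0.135 to 0.392 CPM, LCT at 0.435 to 1.04 CPM and UBA7 at 0.34 to 0.642 CPM. The upstream genes were at log2 fold changes of -0.74 for CSTF1, 0.29 for MCM6, 0.09 for PHF20L1 and -0.24 for TRAIP. Of these, CSTF1 was called lower and the others were not called. NMRAL2P, a pseudogene 326392 bases from SENP2, is an example of a long gap. It had 1.26, 1.5, 1.43 and 0.995 CPM in MG132 plus α-amanitin libraries and 1.72 to 4.63 CPM in MG132 libraries, against 0, 0.104, 0.123 and 0.0794 CPM in G2 libraries (log2 fold change 3.96, adjusted p = 0.000123).

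**Figure D5:**
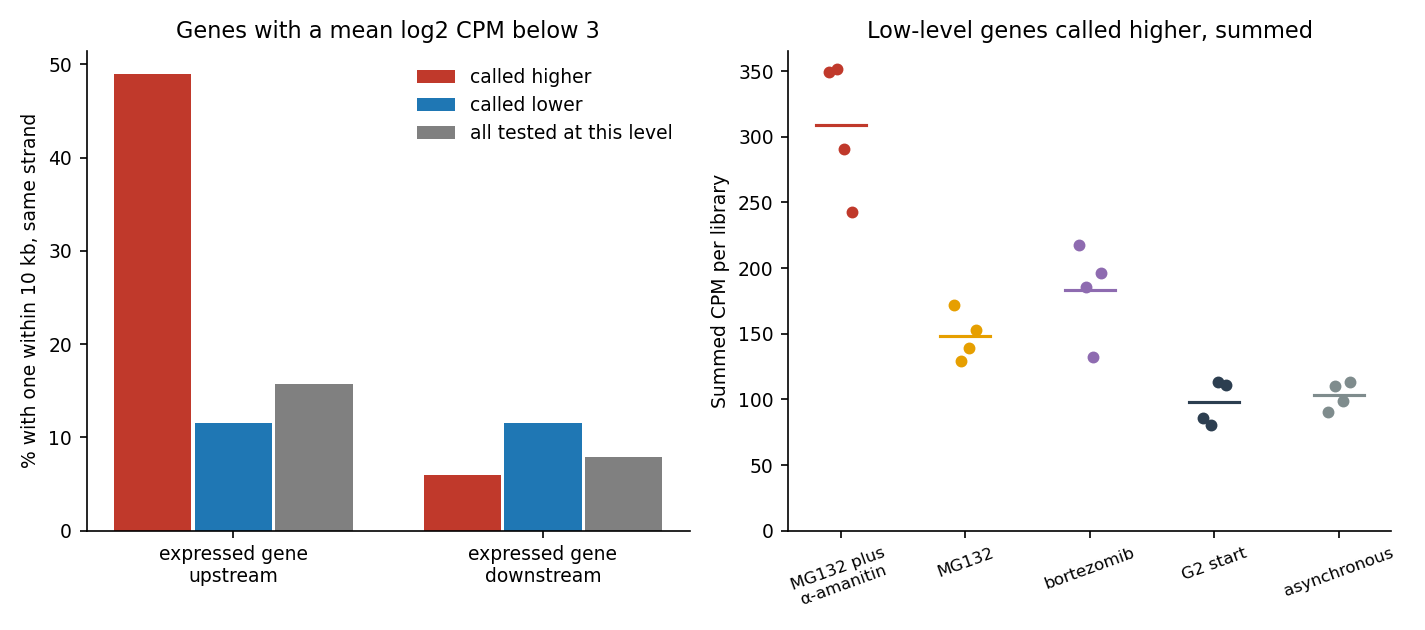
Left, percent of low-level genes with an expressed gene within 10 kb upstream or downstream on the same strand, for genes called higher, called lower and all tested at this level; right, summed CPM of the low-level genes called higher in each library of MG132 plus α-amanitin, MG132, bortezomib (another proteasome inhibitor), G2 and asynchronous cells, with lines at the means. The upstream gap is at most 10 kb for 49% of the genes called higher and for 15.7% of all.

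Repeat subfamilies had mostly small positive log2 fold changes and almost no calls. Of 1076 tested, 987 were positive, with a median of 0.41 that became -0.0149 when scaled to mitochondrial mRNAs, while 0 were called lower and 1 higher, 0% and 0.0929%, in edgeR. An unadjusted p under 0.05 was reached by 8 lower and 105 higher subfamilies, and DESeq2 called 1 lower and 17 higher. The groups did not overlap for 39 subfamilies upward, 3.62%, below the 7.76% of genes. Summed LTR elements had 9350, 7500, 6620 and 4280 CPM in MG132 plus α-amanitin libraries, against 4190, 3210, 6960 and 6430 CPM in G2 libraries. L1 elements had 17700, 11600, 12000 and 7100 CPM in MG132 plus α-amanitin libraries, against 6000, 4250, 14600 and 12000 CPM in G2 libraries. In both sums the groups overlapped, and G2 replicates 1 and 2 were the low ones. LTR elements had a median of 0.53 over 546 subfamilies, LINE elements 0.38 over 165, SINE elements 0.41 over 57 and DNA elements 0.26 over 226. The one called was MER89-int, an ERV1 element, with 44.4, 28.8, 16.5 and 15.5 CPM in MG132 plus α-amanitin libraries, against 3.01, 1.92, 4.66 and 4.87 CPM in G2 libraries (log2 fold change 2.86, SE 0.53, adjusted p = 0.0279). Its groups were separate, and the call was lost without any 1 G2 library or treated replicate 1 or 2, with adjusted p up to 0.18.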

How the data were processed

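Stranded TruSeq libraries were made from total RNA after ribosomal RNA was removed, per the labels' protocols. The authors deposited raw counts, whole numbers without normalisation, for 39918 genes and 1174 repeat subfamilies, and 20 of 20 columns matched a sample by name. FastQC, cutadapt 1.18, STAR and the build hg38 are listed in the submitters' processing notes; counting tool, annotation release and strand setting are not given in the sources used. Near-identical, overlapping and antisense genes are therefore uncertain. Positions, exons and lengths were taken from GENCODE release 29. Exon number, mature length, GC content and 3′ UTR were those of the transcript chosen for each gene.

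Counts were fitted in R 4.3.3 with edgeR 4.0.16 (filterByExpr, TMM, robust quasi-likelihood test) on 20 libraries with 1 mean per group. Adjusted p-values are Benjamini-Hochberg values over genes and, separately, over repeats. The steps were tested on simulated data. Alternatives were RLE, total and mitochondrial scaling, no filter or a strict one (4 libraries or more with at least 1 CPM), limma-voom (limma 3.58.1), DESeq2 1.42.0, replicate and letter blocks, 8 libraries only, separate fits, a GC and length offset, a 2-fold minimum and leaving out each library.

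The members, lists and rule for named genes were chosen with earlier results of these data known. Named genes were the 15 lowest and highest protein-coding and 6 lowest and highest other genes called without overlap at a mean log2 CPM of 3 or more, up to 4 members per list by smallest p, and a set list, and the text gives a choice of them.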

Additional observations from a re-analysis of the deposited data

Results flagged for a closer look

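A library far from the other 3 of its group was looked for in each gene described above, and 10 of 160 groups held one; chance gives about 1 in 20. In MG132 plus α-amanitin cells, SOX4 had 39.9 CPM in replicate 4 and 23.8 to 26.5 CPM in the others, and MIR17HG had 7.79 CPM in replicate 3 and 3.87 to 4.31 CPM in the others. RNVU1-27 had 2.03 CPM in replicate 1 and 4.4 to 4.61 CPM in the others. OSGIN1 had 41.8 CPM in replicate 4 and 30.9 to 31.9 CPM in the others, and HMOX1 had 38.4 CPM in that replicate and 24.7 to 25.4 CPM in the others. In G2 cells, replicate 1 was the high library for IER3 (293 CPM, others 234 to 241), DUSP6 (138 CPM, others 88.4 to 90.6), ID2 (161 CPM, others 82.7 to 95.9) and GAS5 (473 CPM, others 200 to 243). HMOX1 had 42 CPM in G2 replicate 2 and 17.5 to 19.8 CPM in the others.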

How the results depend on the processing

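Lower genes numbered 899 when scaled to mitochondrial mRNAs, 154 with the code letter as a block and 725 with the GC and length offset, and 194 to 478 with 1 library left out. Higher genes numbered 84 with mitochondrial scaling, 84 with the strict filter, 70 with the letter block, 371 with DESeq2 and 369 with the offset, and 103 to 204 with 1 library left out. The share of lower among called genes was 69%, and 91.5% with mitochondrial scaling, 58.6% without a filter and 78.8% with the strict filter. Repeat subfamilies called lower numbered 5 when fitted separately and 1 with DESeq2. Those called higher numbered 0 with mitochondrial scaling, without a filter, and with the replicate or letter block, 19 when fitted separately, 17 with DESeq2, and 0 to 2 with 1 library left out. HMOX1, not called, changed sign with mitochondrial scaling (-0.144). With the replicate number as a block, 328 genes were lower and 138 higher. Deviations of same-numbered libraries correlated at -0.314, -0.209, 0.0618 and -0.709. Those of unlike-numbered libraries spread from -0.737 to 0.828, so these values cannot decide whether the numbers pair the samples. The cause of these shifts was not tested. Small loci such as MIR21, with 1 to 2 reads in MG132 plus α-amanitin libraries, are limited by depth.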
